A study of Mus musculus with 8 samples.

Results

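The non-collagen extracellular matrix genes followed here are 39 genes named by a fixed list of glycoproteins, small and large proteoglycans, laminin chains, nidogens and elastic fibre proteins, out of 21879 genes in the expression table. They were read in C2C12, a line of mouse myoblasts that stop dividing and fuse to form myotubes in low serum. The 8 libraries form 2 groups of 4, one transfected with the control siRNA siNC and the other with siFAM129B, an siRNA against Fam129b, a cytoplasmic protein of the Niban family. All 8 carry the label of muscle differentiation, the labels give no hours or days in that medium, and the transfection reagent was the same throughout. All samples come from 1 cell line, and no label tells if samples within a group were grown apart. If they were not, the p-values reflect technical spread alone. The aim stated for the series is the role of Fam129b in muscle atrophy, and the comparison asks how the matrix transcripts differ when it is depleted.

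Muscle fibres sit in a basement membrane built on laminins, which are cross-shaped proteins of an alpha, a beta and a gamma chain. Nidogens and perlecan tie the laminin sheet to type IV collagen, and the sheet is held to the fibre by integrins and dystroglycan. Outside it lies the interstitial matrix, where fibronectin forms fibrils that cells assemble through integrins, small proteoglycans coat collagen, and fibrillin microfibrils carry elastin and store latent TGF-beta. Myoblasts in culture make much of this matrix themselves, and its make-up is known to affect how they spread, divide and fuse.

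Values are FPKM as computed by the authors, reads scaled by gene length and library size, so levels of different genes can be set side by side. Whole reads recovered from them came to between 31466869 and 36031688 per library. Of the markers of other cell types, the endothelial, epithelial and Schwann cell lists summed to at most 0.215, 0.252 and 0.675 FPKM, and the adipocyte list to at most 1.27 FPKM. Single markers of further lists were present, namely Cd68 of 4 macrophage markers at 2.56 to 4.21 FPKM, Sox9 of 3 chondrocyte markers at 9.61 to 19.3 FPKM and the tendon factors Scx and Mkx at 46.1 to 84.5 and 2.20 to 4.33 FPKM, whereas Adgre1, Acan and Tnmd of the same lists were at 0 in every library. The myoblast markers Myod1, Des and Cdh15 lay at 26.9 to 41.3, 172 to 289.7 and 68.5 to 98.2 FPKM. Myf5 and Pax7 of the same list were lower, at 4.5 to 16.7 and 1.03 to 1.46 FPKM. The myotube markers Myog, Myh3, Ckm, Acta1, Tnnt3 and Tmem8c reached no more than 14.3, 2.55, 0.984, 10.5, 3.56 and 8.93 FPKM. Higher were the proliferation markers Mki67, Top2a and Ccnb1, at 66.6 to 90.4, 132 to 165 and 79.7 to 96.6 FPKM. The label of muscle differentiation was thus not matched by high myotube transcripts. The fibroblast markers Ly6a, which muscle progenitors also express, and Pdgfra were at 186 to 379 and 8.28 to 17.5 FPKM, and Thy1 at no more than 0.1 FPKM. Fam129b, the siRNA target, did not overlap between the groups, at 98.5 ± 19.9 FPKM in siFAM129B against 168 ± 11.6 FPKM in siNC (SD, n = 4; exact two-sided permutation p = 0.0286, the lowest p possible with 4 against 4). In the limma fit used below for the matrix genes, Fam129b had an adjusted p of 0.784. That fit thus did not call the siRNA target either, and a gene it does not call is not shown to be unchanged. siFAM129B library 4 stood apart before any matrix gene is considered. It kept 76.5% of the siNC mean of Fam129b, against 52.8% in libraries 1 to 3. Its FPKM summed to 470385, against 391336 in the lowest library and 398292 in the next highest. Those percentages are of unscaled FPKM, so the higher sum raises that of library 4. With all libraries scaled to 1 common sum, the log2 difference of Fam129b was -0.84, against -0.78 unscaled. For many members the difference is given with and without siFAM129B library 4.

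C2C12 cells of both groups held abundant interstitial and basement membrane transcripts. The 39 genes together summed to between 2797 and 3511 FPKM per library, and Fn1, Sparc, Bgn and Nid1 made up 56.6 to 60.4% of that sum. Fibronectin (Fn1), at a mean of 586 FPKM, ranked 60 by level among the 11025 genes that averaged 1 FPKM or more. Sparc (528 FPKM) and biglycan (Bgn, 516 FPKM) ranked 71 and 74. Nidogen 1 (Nid1, 230.3 FPKM), Ecm1 (189 FPKM) and thrombospondin 1 (Thbs1, 123 FPKM) followed, and the next member, fibulin 2 (Fbln2), averaged 94.8 FPKM.

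Of the 39 members, 30 reached a mean of 1 FPKM over the 8 libraries and were tested. The lowest of these was Mfap2, at 1.41 FPKM, and the highest of the 9 left out was Tgfbi, at 0.666 FPKM. Elastin itself (Eln) and fibrillin 2 (Fbn2) had a value above 0 in 1 library each, and microfibril-associated Mfap4 was listed at 0 in all 8. Of the small leucine-rich proteoglycans, fibromodulin (Fmod) had a value in 1 library and lumican (Lum) in 3, at no more than 0.0839 FPKM. Laminin alpha 1 (Lama1) and alpha 3 (Lama3), the chains of embryonic and epithelial basement membranes, stayed between 0.0495 and 0.323 FPKM. Periostin (Postn) lay between 0.0722 and 0.341 FPKM and Tgfbi between 0.325 and 1.05 FPKM, on 8 to 34 and 29 to 90 reads. Elastic fibre genes were thus represented by microfibril and fibulin transcripts, with elastin at the floor.

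**Figure D1:**
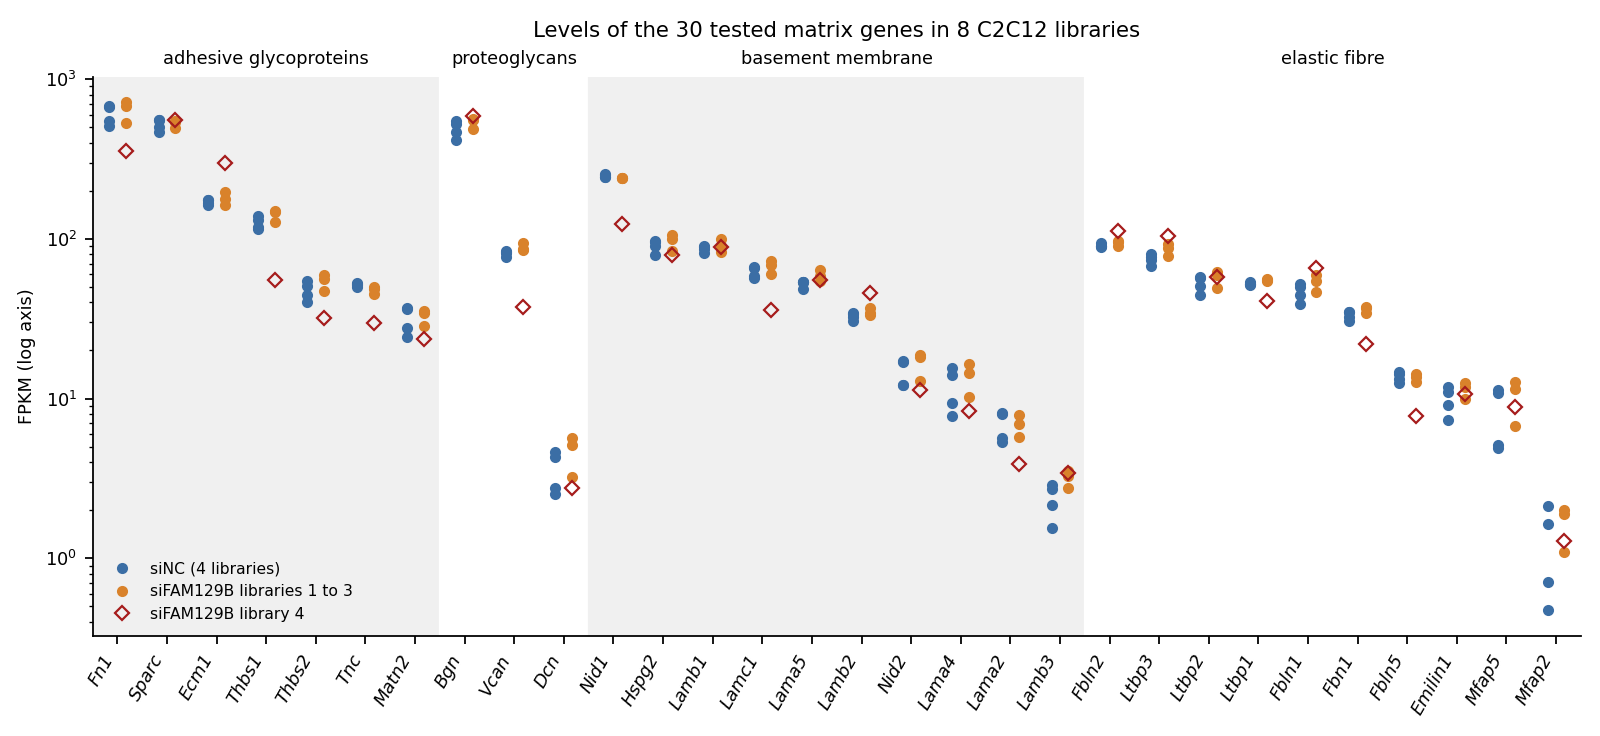
FPKM (log axis) of the 30 tested matrix genes, grouped by role and ordered by level; each point is 1 library, blue for siNC, orange for siFAM129B libraries 1 to 3 and an open red diamond for siFAM129B library 4. Levels run from Fn1 at a mean of 586 FPKM to Mfap2 at 1.41 FPKM, and the diamond lies outside the blue points for 23 of the 30 genes.

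Upstream sequence is shown for 5 of these genes: for Sparc and Bgn because they are the most abundant members with an entry, for Ltbp3 because it had the smallest p of the comparison below, and for Lama2 and Emilin1 because they belong to the members that were higher in replicates 1 and 2 of both groups. Each is the 250 bases before the annotated start, 5′ to 3′ on the gene's strand, from RefSeq on GRCm38.p6 (chr11:55420081-55420330, minus strand, for Sparc; chrX:73483351-73483600, plus, for Bgn; chr19:5740650-5740899, plus, for Ltbp3; chr10:27616943-27617192, minus, for Lama2; chr5:30913536-30913785, plus, for Emilin1). Capitals mark CAGAC, the core of the SMAD element through which TGF-beta acts, and GGGCGG, the GC box, on either strand.
Sparc: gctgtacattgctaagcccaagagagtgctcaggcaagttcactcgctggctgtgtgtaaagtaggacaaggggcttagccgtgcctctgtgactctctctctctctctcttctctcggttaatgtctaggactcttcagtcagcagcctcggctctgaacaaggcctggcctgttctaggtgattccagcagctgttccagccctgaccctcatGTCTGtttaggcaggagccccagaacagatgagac
Bgn: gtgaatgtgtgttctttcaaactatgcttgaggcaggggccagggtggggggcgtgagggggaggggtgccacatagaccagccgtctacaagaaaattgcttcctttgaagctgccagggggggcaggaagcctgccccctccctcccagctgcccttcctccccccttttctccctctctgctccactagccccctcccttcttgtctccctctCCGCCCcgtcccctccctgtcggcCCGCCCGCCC
Ltbp3: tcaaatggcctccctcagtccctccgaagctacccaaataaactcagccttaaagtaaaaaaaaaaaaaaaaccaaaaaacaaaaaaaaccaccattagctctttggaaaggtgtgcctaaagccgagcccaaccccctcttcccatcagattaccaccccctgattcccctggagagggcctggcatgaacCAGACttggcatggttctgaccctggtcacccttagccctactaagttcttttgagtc
Lama2: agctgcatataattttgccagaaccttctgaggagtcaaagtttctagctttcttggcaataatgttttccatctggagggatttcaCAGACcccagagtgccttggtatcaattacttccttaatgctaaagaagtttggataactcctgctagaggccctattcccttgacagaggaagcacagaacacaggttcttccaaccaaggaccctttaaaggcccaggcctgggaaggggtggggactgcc
Emilin1: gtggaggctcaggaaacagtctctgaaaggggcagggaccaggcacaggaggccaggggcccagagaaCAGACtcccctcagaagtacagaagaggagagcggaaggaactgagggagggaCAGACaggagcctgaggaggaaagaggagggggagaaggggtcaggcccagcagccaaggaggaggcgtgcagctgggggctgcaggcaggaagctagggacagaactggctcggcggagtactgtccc

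Emilin1 held CAGAC at 2 places, Sparc, Ltbp3 and Lama2 at 1 each, and Bgn held GGGCGG at 3 places, of which some overlap, and no CAGAC. Across the 32 windows of the 25 members with an entry, CAGAC was in 68.8%, against 42.2% of all 32851 windows of the same length. GGGCGG was in 50% against 32.7%, the E-box CANNTG in 71.9% against 66.2%, TATAAA in 15.6% against 12.4%, GGAATG in 9.38% against 12.6% and TGANTCA in 3.12% against 6.75%, all on both strands. These shares were not tested, some members have a pair of windows that share bases, and a match of letters is not a binding site.

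Between the groups, the 95% interval of the log2 difference before adjustment included 0 for all tested members but 2, Ltbp3 and Lamb3. Of the 30 tested members, 0 passed an adjusted p of 0.05 in limma on log2(FPKM + 1), as against 0 of all 11025 genes tested (0%). At an unadjusted p under 0.05 there were 2 members, Ltbp3 and Lamb3, both higher, beside 2.49% of all tested genes. With voom on recovered reads, limma called 0 genes too, with 250 genes and 2 members at an unadjusted p under 0.05. The log2 difference lay above 0 for 19 members and below 0 for 11, with a median of 0.055, beside 50.6% of all tested genes above 0 and a median of 0.003. With the FPKM of all libraries scaled to 1 common sum, which lowers all values of siFAM129B library 4 alike, 14 of the 30 were above 0, beside 37.0% of all tested genes. In the unscaled FPKM, all 4 siFAM129B libraries lay above all 4 siNC libraries for 1 member, Lama5 (1.9% of all tested genes did so). They lay below all 4 siNC libraries for 2, Tnc and Nid1 (1.46%). Without siFAM129B library 4 in the comparison, 3 members lay above all siNC libraries, Vcan, Lama5 and Ltbp1 (3.26% of all tested genes), and the same 2, Tnc and Nid1, lay below (2.58%).

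**Figure D2:**
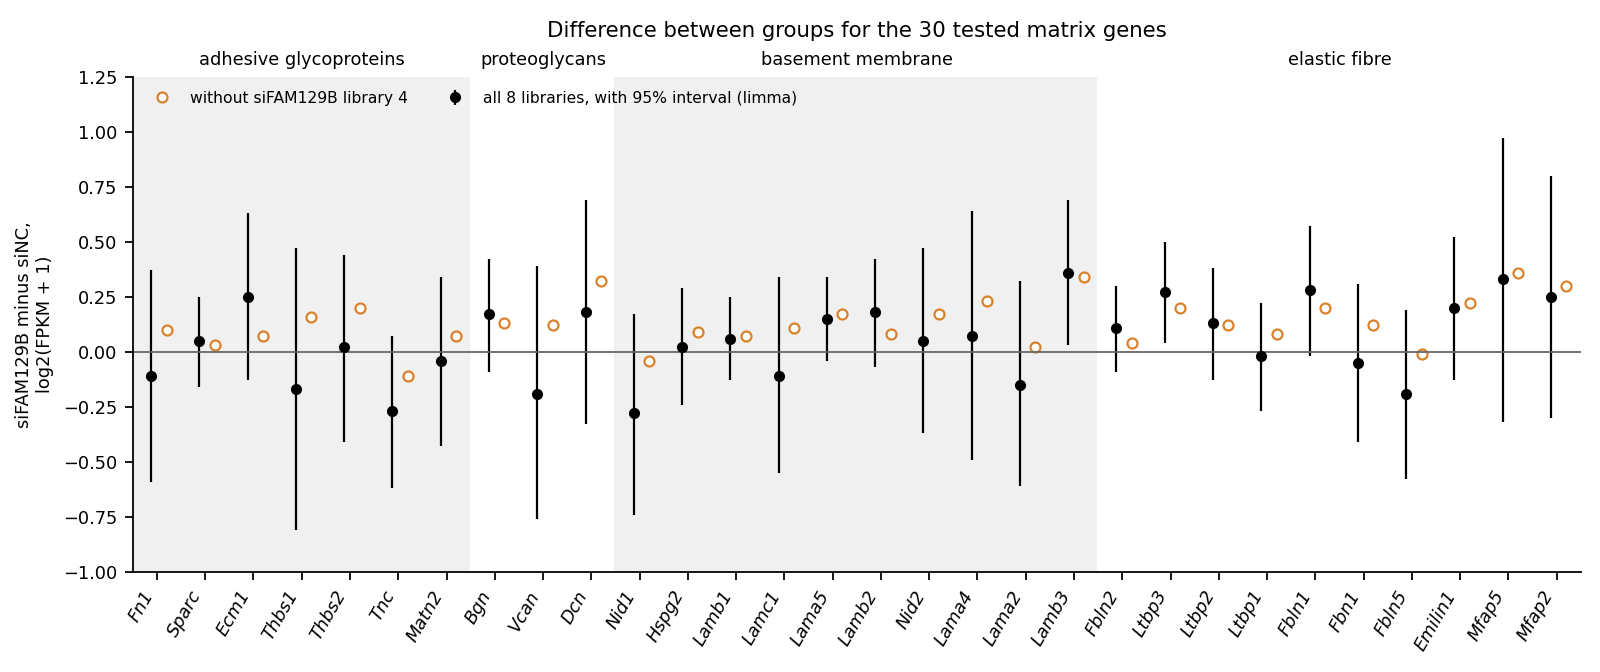
Difference of siFAM129B minus siNC on the log2(FPKM + 1) scale for the 30 tested matrix genes by role; black points with bars are limma estimates from all 8 libraries with their 95% intervals, and open orange points are the estimates without siFAM129B library 4. The bars of Ltbp3 and Lamb3 do not reach 0 before adjustment, and the orange points lie above 0 for 27 of the 30 genes.

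Among the adhesive glycoproteins, 3 of 7 tested members lay above 0 and 4 below, 6 and 1 without siFAM129B library 4, and 0 passed. Fn1, whose fibrils are a scaffold for other matrix proteins, was at 677, 665, 549 and 508 FPKM in siNC libraries 1 to 4 and at 717, 682, 534 and 354 FPKM in siFAM129B libraries 1 to 4. The groups overlapped, with siFAM129B libraries 1 and 2 the highest of all 8 and siFAM129B library 4 the lowest. The log2 difference of Fn1 was -0.11 (95% interval -0.59 to 0.37), and it was 0.10 without siFAM129B library 4.

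Sparc, a collagen-binding protein that moderates cell adhesion, was the steadiest of the abundant members, at 554, 556, 499 and 469 FPKM in siNC and 547, 542, 496 and 558 FPKM in siFAM129B. Its log2 difference was 0.05 (95% interval -0.16 to 0.25). Ecm1, a secreted glycoprotein that binds perlecan and fibulins, was at 174, 176, 168 and 162 FPKM in siNC and 196, 177, 163 and 297 FPKM in siFAM129B. Library 4 alone was far above the rest for Ecm1, and the log2 difference of 0.25 (SE 0.17) was 0.07 without it.

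Tenascin-C (Tnc), a glycoprotein of growing and injured tissue that weakens adhesion to fibronectin, was at 52.5, 51.3, 53.0 and 49.7 FPKM in siNC. In siFAM129B it was at 49.7, 48.5, 45.4 and 29.7 FPKM, all below the siNC values, although siFAM129B library 1 and siNC library 4 both round to 49.7 FPKM. The log2 difference was -0.27 ± 0.15 (SE; limma adjusted p = 0.784), and -0.11 without library 4. Thbs1, which can activate latent TGF-beta, is named here after its values were seen. It stood at 139, 131, 119 and 115 FPKM in siNC and 150.0, 147, 127 and 55.2 FPKM in siFAM129B, so that siFAM129B libraries 1 and 2 were the highest and library 4 the lowest of all. The log2 difference of Thbs1 was -0.17 with library 4 and 0.16 without it. Thbs2 and matrilin 2 (Matn2) averaged 47.3 ± 6.30 and 31.4 ± 6.33 FPKM in siNC (SD, n = 4), and 48.8 ± 12.4 and 30.4 ± 5.47 FPKM in siFAM129B. The log2 difference of Thbs2 was 0.02, or 0.20 without library 4.

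Of the proteoglycans, Bgn was much the most abundant at the RNA level, and its close relative decorin (Dcn), which also binds collagen and TGF-beta, was low. Bgn made up 99.0 to 99.5% of the summed FPKM of Bgn and Dcn in every library. Bgn was at 548, 524, 464 and 414 FPKM in siNC and 552, 560.3, 485 and 584 FPKM in siFAM129B, with a log2 difference of 0.17 ± 0.11 (SE) and overlapping groups. Dcn was at 4.63, 4.31, 2.74 and 2.53 FPKM in siNC and 5.11, 5.66, 3.23 and 2.77 FPKM in siFAM129B. In both groups its libraries 1 and 2 were above libraries 3 and 4. The log2 difference of Dcn was 0.18, or 0.32 without siFAM129B library 4. Versican (Vcan), a large hyaluronan-binding proteoglycan of early muscle matrix, was at 82.4, 77.5, 81.6 and 84.2 FPKM in siNC and 86.0, 84.8, 94.7 and 37.4 FPKM in siFAM129B. siFAM129B libraries 1 to 3 were above every siNC library and library 4 held less than any other, which turned the log2 difference from 0.12 without it to -0.19 with it.

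Of the basement membrane genes, 10 of 12 were tested, 7 above 0 and 3 below, 9 and 1 without siFAM129B library 4, and 0 passed. The chains with a mean of at least 1 FPKM were alpha 5, alpha 4 and alpha 2, beta 1, beta 2 and, at a low level, beta 3, and gamma 1. Lama5 was the main alpha chain at 68.9 to 81.6% of the summed alpha chain FPKM, followed by Lama4 at 12.3 to 20.2%. Lama2, the alpha chain of the mature muscle basement membrane, the loss of which causes a muscular dystrophy, held 5.72 to 10.6%. The share of Lama5 was 68.9 and 70.5% in siNC libraries 1 and 2 and 77.7 and 78.4% in libraries 3 and 4. In siFAM129B it was 72.2 and 72.9%, then 76.9 and 81.6%, so the shift between replicate numbers occurred in both groups. Lamb1 held 64.4 to 71.6% of the beta chains and Lamb2, the beta chain concentrated at neuromuscular junctions in muscle, 26.2 to 33.1%.

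**Figure D3:**
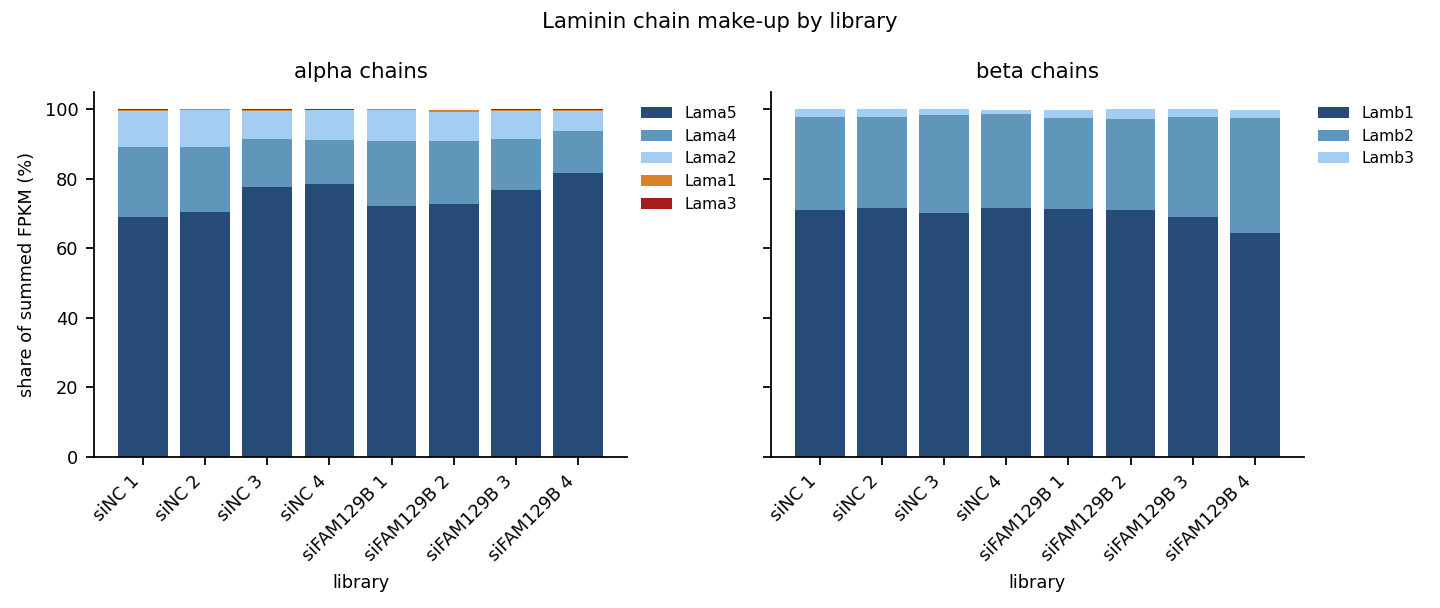
Share of each chain in the summed FPKM of the laminin alpha genes (left) and beta genes (right), in percent, for the 8 libraries. Lama5 takes 68.9 to 81.6% of the alpha chains, with the lower shares in replicates 1 and 2 of each group, and the Lamb2 share is highest in siFAM129B library 4, at 33.1%.

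In the unscaled FPKM, Lama5 was the member whose siFAM129B libraries all lay above siNC. Its groups overlapped with all libraries scaled to 1 common sum, where the log2 difference was 0.08 (SE 0.1). The unscaled values of Lama5 were 53.4, 53.7, 53.6 and 48.4 FPKM in siNC and 64.1, 58.8, 54.3 and 55.3 FPKM in siFAM129B. The gap between the groups was narrow, from 53.7 to 54.3 FPKM, and the log2 difference was 0.15 ± 0.09 (SE; limma adjusted p = 0.784). Lamb3, the beta chain of epithelial laminin and a low transcript here, was at 2.89, 2.72, 2.16 and 1.54 FPKM in siNC and 3.29, 3.5, 2.74 and 3.40 FPKM in siFAM129B, on 216 to 447 reads. siFAM129B library 3 lay among the siNC values and the other 3 above them. Its log2 difference was 0.36 ± 0.15 (SE; limma, unadjusted p = 0.0341 and adjusted p = 0.784) and its 95% interval before adjustment ran from 0.03 to 0.69.

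Lamb2 was at 33.9, 32.5, 34.5 and 30.7 FPKM in siNC and 36.7, 33.6, 34.2 and 45.5 FPKM in siFAM129B, a log2 difference of 0.18 ± 0.11 (SE) that was 0.08 without library 4. Lamb1 was at 89.6, 88.6, 86.6 and 81.0 FPKM in siNC and 99.3, 90.4, 82.7 and 88.6 FPKM in siFAM129B, and the groups overlapped. Lamc1, the gamma chain shared by most laminins, averaged 62.0 ± 4.87 FPKM in siNC and 59.3 ± 16.4 FPKM in siFAM129B (SD, n = 4), with library 4 at 35.9 FPKM. Its log2 difference was -0.11 with library 4 and 0.11 without it. Lama4 and Lama2 averaged 11.7 ± 3.72 and 6.79 ± 1.51 FPKM in siNC, and 12.4 ± 3.75 and 6.11 ± 1.74 FPKM in siFAM129B (SD, n = 4). Without library 4 the log2 difference went from 0.07 to 0.23 for Lama4 and from -0.15 to 0.02 for Lama2.

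The linker genes differed in how even they were. Nid1, which joins laminin to type IV collagen, was at 244, 243, 252 and 256 FPKM in siNC and 242, 241, 241 and 124 FPKM in siFAM129B. All 4 siFAM129B libraries lay below siNC, with libraries 1 to 3 at 241 to 242 FPKM against a lowest siNC value of 243 FPKM, and with library 4 far below the other 7. The log2 difference was -0.28 ± 0.20 (SE; limma adjusted p = 0.784), and -0.04 without library 4. Nid2 was lower in level, at 14.6 ± 2.88 FPKM in siNC and 15.3 ± 3.71 FPKM in siFAM129B (SD, n = 4). The log2 difference of Nid2 was 0.05, or 0.17 without library 4. Perlecan (Hspg2), the heparan sulphate proteoglycan of basement membranes, was at 95.8, 97.5, 89.7 and 79.1 FPKM in siNC and 106, 100.1, 84.1 and 79.3 FPKM in siFAM129B, with a log2 difference of 0.02 (95% interval -0.24 to 0.29).

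Of 13 elastic fibre genes, 10 were tested, 7 above 0 and 3 below, 9 and 1 without siFAM129B library 4, and 0 passed. Fibrillin 1 (Fbn1), the backbone of microfibrils, averaged 33.2 ± 1.94 FPKM in siNC and 32.7 ± 7.26 FPKM in siFAM129B (SD, n = 4), with library 4 at 22.1 FPKM and a log2 difference of -0.05, or 0.12 without that library. The latent TGF-beta binding proteins Ltbp1 to Ltbp3, of which Ltbp1 and Ltbp3 hold latent TGF-beta on microfibrils, were present at like levels. Ltbp3 was the highest of them at 76.9, 80.0, 74.1 and 67.9 FPKM in siNC and 92.9, 87.1, 78.3 and 104 FPKM in siFAM129B. siFAM129B libraries 1, 2 and 4 lay above every siNC library and library 3 lay among them. The log2 difference was 0.27 ± 0.10 (SE; limma, unadjusted p = 0.0278 and adjusted p = 0.784), the smallest p of the members, and 0.20 without library 4. Ltbp3 made up 41.1 to 42.4% of the summed FPKM of the 3 genes in siNC. In siFAM129B its share was 44, 43.3 and 42.9% in libraries 1 to 3 and 51.2% in library 4.

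Ltbp2, which binds fibrillin but not latent TGF-beta, was at 56.8, 57.5, 51 and 44.2 FPKM in siNC and 62.4, 59.3, 49.1 and 58.1 FPKM in siFAM129B. Ltbp1 was the most even member in siNC, at 52.2 ± 1.02 FPKM (SD, n = 4), and siFAM129B libraries 1 to 3 lay above that range at 55.7, 54.6 and 55.3 FPKM while library 4 lay below it at 40.9 FPKM. Fbln2, a fibulin of basement membranes and elastic fibres, was at 89.1, 94.5, 90.3 and 90.3 FPKM in siNC and 94.9, 96.6, 90.1 and 112 FPKM in siFAM129B. Fbln1, which binds fibronectin and laminin, was at 49.7, 52.5, 44.6 and 38.9 FPKM in siNC and 59.7, 54.6, 46.5 and 65.7 FPKM in siFAM129B. In both fibulins siFAM129B libraries 1, 2 and 4 were above siNC and library 3 was not, and the log2 difference of Fbln1 was 0.28 ± 0.13 (SE; limma adjusted p = 0.784), or 0.20 without library 4. That of Fbln2 was 0.11 with library 4 and 0.04 without it. Fbln5, a fibulin needed for elastic fibre assembly, averaged 13.7 ± 0.93 FPKM in siNC and 12.1 ± 2.96 FPKM in siFAM129B (SD, n = 4), with library 4 at 7.76 FPKM and a log2 difference of -0.19, or -0.01 without that library. Emilin1, a microfibril glycoprotein that dampens TGF-beta maturation, averaged 9.80 ± 1.99 and 11.2 ± 1.17 FPKM. Of the microfibril-associated Mfap genes, Mfap5 stood at 8.05 ± 3.53 and 9.94 ± 2.67 FPKM and Mfap2 at 1.24 ± 0.779 and 1.57 ± 0.453 FPKM (SD, n = 4, siNC first).

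Most matrix genes also differed in level along replicate numbers, in both groups, as did most genes of the related lists further below in siNC. In siNC, 28 of the 30 tested members averaged higher in replicates 1 and 2 than in 3 and 4, beside 50.5% of all tested genes, with a median log2 gap of 0.20 against 0.00 over all tested genes. For 15 members (50%) all 4 libraries numbered 1 or 2 lay above all 4 numbered 3 or 4, beside 11.1% of all tested genes: Fn1, Thbs1, Thbs2, Matn2, Dcn, Lama2, Lama4, Lamb1, Lamc1, Nid2, Hspg2, Fbn1, Mfap2, Mfap5 and Emilin1. In siFAM129B libraries 1 to 3, libraries 1 and 2 were both above library 3 for 26 of 30 members, beside 39.2% of all tested genes. The labels name no batch, and the split by replicate number was known from earlier results of these data, so these counts are a description with no test.

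Mfap5 and Lama4, named after their values were seen, had among the widest gaps. Mfap5, a microfibril glycoprotein, was at 10.9, 11.3, 5.09 and 4.92 FPKM in siNC and 12.7, 11.5, 6.69 and 8.90 FPKM in siFAM129B. The log2 gap between replicates 1 and 2 and replicates 3 and 4 was 1.01 in siNC and 0.58 in siFAM129B. Lama4, a laminin chain of vessels and nerve as well as muscle, was at 15.6, 14.1, 9.44 and 7.81 FPKM in siNC and 16.5, 14.5, 10.3 and 8.31 FPKM in siFAM129B, with gaps of 0.73 and 0.68. Not every member followed it: Vcan and Nid1 had gaps of -0.05 and -0.06 in siNC, Ltbp1 of 0.01, and Tnc, Fbln2 and Fbln5 of 0.02 each.

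The myotube markers followed the same numbers in both groups. The summed level of the 6 myotube markers was 39.7 and 37.6 FPKM in siNC libraries 1 and 2 and 20.1 and 14.3 FPKM in libraries 3 and 4, and 20.2, 18.2, 9.21 and 10.5 FPKM in siFAM129B libraries 1 to 4. At each replicate number the siFAM129B sum was below the siNC sum, but no label pairs libraries by number. Taken as groups they overlapped, at 14.3 to 39.7 FPKM in siNC and 9.21 to 20.2 FPKM in siFAM129B. The 3 summed fibroblast markers, of which Ly6a gave most, were 347, 335, 239 and 198 FPKM in siNC and 396, 332, 269 and 338 FPKM in siFAM129B. The 3 proliferation markers summed to 324, 315, 335 and 352 FPKM in siNC and 298, 304, 326 and 302 FPKM in siFAM129B. In siNC they were thus lower in replicates 1 and 2, opposite in direction to the myotube markers. In siFAM129B library 3 was the highest, and library 4 lay between libraries 1 and 2. The 5 myoblast markers summed to 389.8, 403, 321 and 280.0 FPKM in siNC and 372, 358, 286 and 435 FPKM in siFAM129B, so that library 4 was the highest there. The part of these markers in the matrix gaps was not tested, and in RNA from whole cultures fewer cells of a kind and less RNA per cell cannot be told apart.

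**Figure D4:**
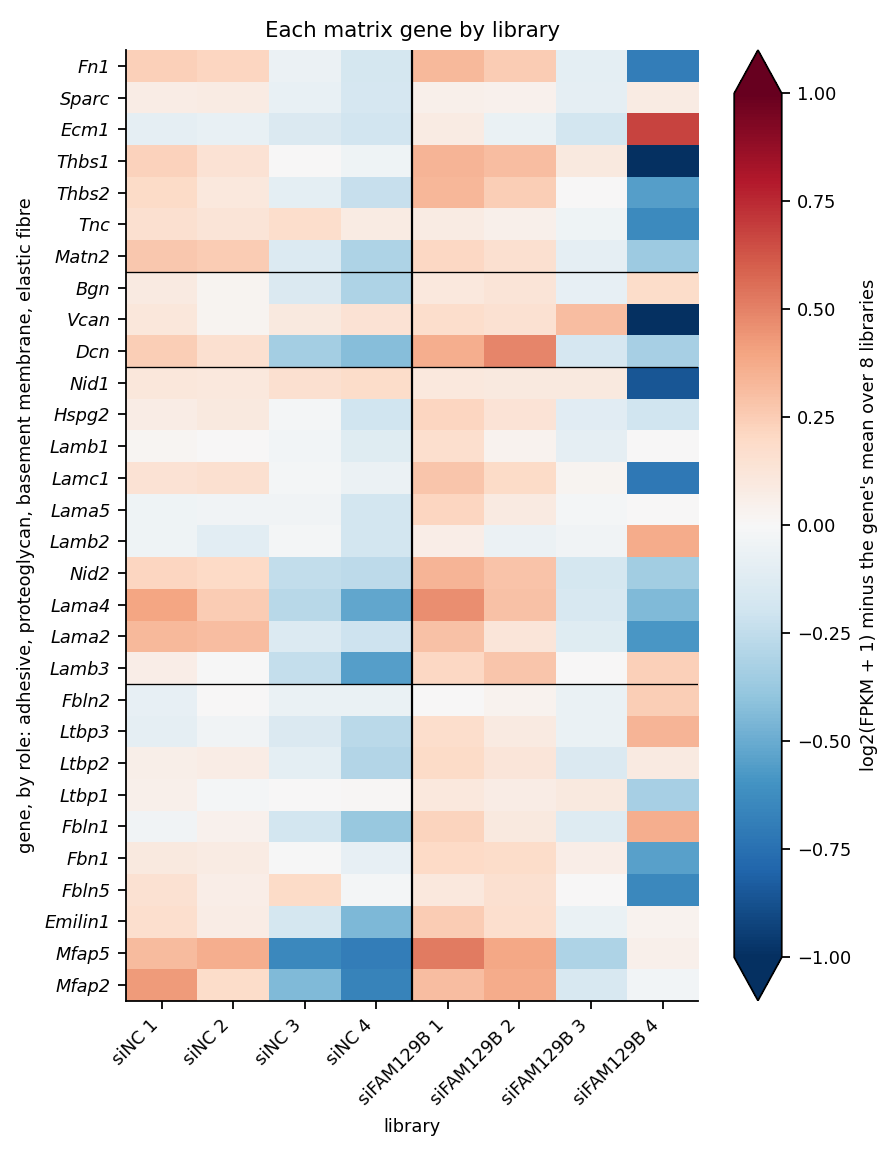
Each of the 30 tested matrix genes (rows, by role) in each library (columns), as log2(FPKM + 1) minus the gene's mean over the 8 libraries; red is above the mean, blue below, and the colour scale ends at 1 in either direction. Columns of replicates 1 and 2 are mostly red in both groups, those of siNC 3 and 4 mostly blue, and siFAM129B library 4 holds the darkest cells in both colours.

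Set within the same replicate numbers, the members stood slightly higher with siFAM129B outside library 4. In replicates 1 and 2 alone, 25 of 30 members were above 0 (49.5% of all tested genes), with a median log2 difference of 0.088 against -0.002 over all tested genes. siFAM129B library 3 against siNC libraries 3 and 4 put 23 of 30 above 0 (51.4% of all tested genes), also with a median of 0.088, against 0.004. siFAM129B library 4 against the same siNC libraries gave a median of 0.006, against 0.043 over all tested genes. Without siFAM129B library 4, 27 of 30 were above 0 (50.7% of all tested genes) with a median of 0.118, the exceptions being Tnc, Nid1 and Fbln5. That omission leaves siFAM129B with more of replicates 1 and 2 than of 3 and 4; with the replicate split as a covariate as well, 25 of 30 were above 0 (50.2% of all tested genes) and 0 passed the adjusted threshold. In that fit 11 members had an unadjusted p under 0.05 (Dcn, Fbln1, Fbn1, Lama5, Lamb3, Ltbp3, Mfap5, Thbs1, Thbs2, Tnc and Vcan), beside 11.3% of all tested genes, and the smallest adjusted p of a member was 0.255. These counts share libraries and are no independent support for each other. Most members also moved together along replicate numbers, so the genes within a count are not independent replicates of the condition. No single member of the 30 passed in any of the fits tried.

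siFAM129B library 4 lay outside the siNC range in both directions for matrix genes, as it did for genes at large. It lay below all 4 siNC libraries for 13 of the 30 members, beside 39.6% of all tested genes, and above them for 10, beside 42.6%, shares of 43.3% and 33.3% of the members. Against siFAM129B libraries 1 to 3 the log2 difference was -1.34 for Thbs1, -1.22 for Vcan, -0.95 for Nid1, -0.88 for Lamc1 and -0.85 for Fn1. It was 0.73 for Ecm1, 0.38 for Lamb2, 0.30 for Fbln1 and 0.27 for Ltbp3. Over the 30 members this difference had a Spearman rho of 0.60 with the GC content of the transcript and of -0.48 with the gene length implied by the values, and over 10977 tested genes rho was 0.58 and -0.60. These are correlations across genes of 1 library, given with no p since genes are not independent replicates. The gap between siNC replicates 1 and 2 and 3 and 4 had a rho of -0.08 with GC content over the members and -0.35 with length, and of 0.03 with length over all 10977 genes. With length and GC trends removed from each library, which was tried only once the values were known, 23 of 30 members were above 0, beside 51.6% of all genes in that fit. At an unadjusted p under 0.05 there were 4 members (Lama5, Lamb3, Ltbp3 and Tnc), beside 2.91% of all genes, and 0 members passed the adjusted threshold, as against 1 gene in all.

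**Figure D5:**
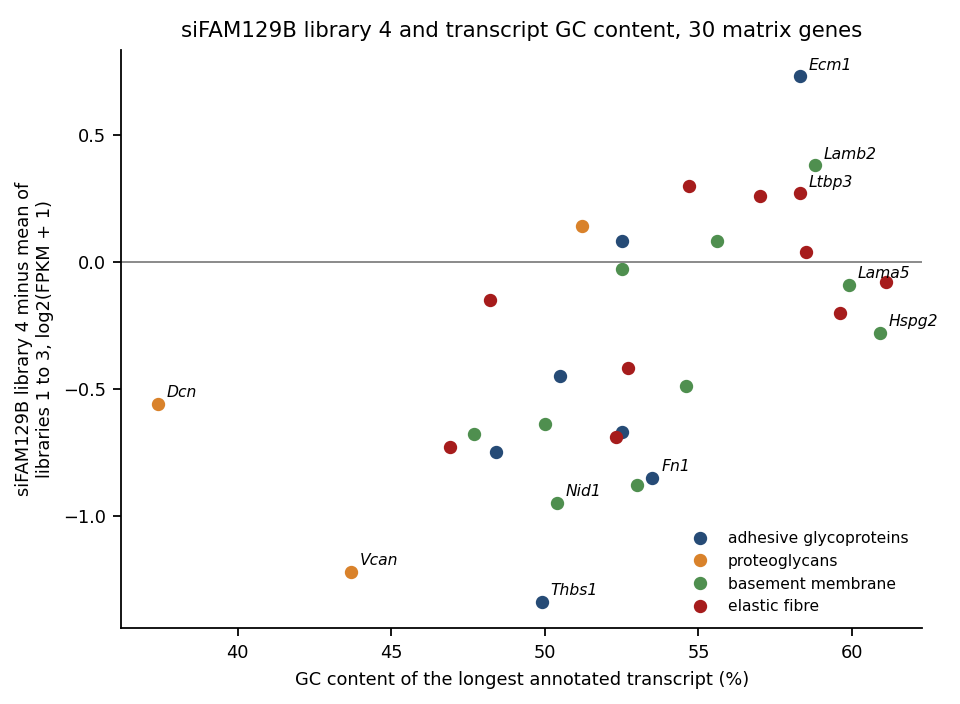
Difference of siFAM129B library 4 from the mean of siFAM129B libraries 1 to 3 on the log2(FPKM + 1) scale (vertical axis) against the GC content of the longest annotated transcript in percent (horizontal axis); each point is 1 of the 30 tested matrix genes, coloured by role. Genes of low GC content such as Vcan lie below 0, down to -1.34 for Thbs1, and the genes above 0, such as Ecm1 at 0.73 and Lamb2 at 0.38, lie mostly to the right.

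Other genes that build, hold and remodel the matrix also had 0 calls in limma. Of 16 tested collagens, 11 were above 0, or 15 without siFAM129B library 4, and 0 had an unadjusted p under 0.05; Col3a1, the most abundant, was at 459 ± 119.7 FPKM in siNC and 448 ± 111 FPKM in siFAM129B (SD, n = 4). It too was higher in replicates 1 and 2, at 566 and 553 against 389.9 and 325 FPKM in siNC, as were 14 of the 16 collagens on average. Col18a1, a basement membrane collagen and the collagen with the smallest p, was at 52.2 ± 6.68 and 60.8 ± 7.55 FPKM (SD, n = 4, siNC first). Of 20 tested crosslinking and processing enzymes 17 were above 0, with or without that library. Bmp1, the procollagen C-proteinase that also processes biglycan and laminin chains, was at 73.6, 72.8, 68.1 and 66.6 FPKM in siNC and 87.4, 81.5, 77.7 and 97.9 FPKM in siFAM129B. The groups did not overlap, with a log2 difference of 0.29 ± 0.09 (SE; limma, unadjusted p = 0.0123 and adjusted p = 0.784), and 0.22 without library 4. Serpinh1, the collagen chaperone HSP47, had the highest level of these at 427 ± 17.3 FPKM in siNC and 446 ± 51.7 FPKM in siFAM129B (SD, n = 4).

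Of 21 other tested matrix glycoproteins, 12 were above 0, or 16 without siFAM129B library 4. Spp1, osteopontin, stood far above every listed member of the matrix at 3425 ± 533 FPKM in siNC and 3338 ± 462 FPKM in siFAM129B (SD, n = 4). Nov, a matricellular CCN protein, was low at 1.26 ± 0.109 and 0.888 ± 0.230 FPKM, and its groups did not overlap (unadjusted p = 0.0421 in limma). Among 27 tested receptors 13 were above 0, or 21 without that library, with Itgb1, the common beta subunit of laminin and fibronectin integrins, at 188 ± 12.6 and 179 ± 23.5 FPKM, and the syndecan Sdc4 at 100.3 ± 6.71 and 115 ± 7.74 FPKM. Of 27 proteases and inhibitors 14 were above 0, or 17 without it; the inhibitor Timp2 was at 237 ± 10.2 and 241 ± 19.9 FPKM and the protease Htra1 at 73.4 ± 7.08 and 89.3 ± 9.30 FPKM. Of 18 TGF-beta ligands, receptors and mediators 8 were above 0, or 12 without it, with Tgfb1 at 40.2 ± 2.69 and 46.4 ± 9.76 FPKM and Bmp4 at 13.5 ± 1.54 and 17.2 ± 3.09 FPKM (SD, n = 4, siNC first). At an unadjusted p under 0.05 in limma these 5 lists other than collagens held 1 gene each in the higher direction. The glycoproteins held 1 lower, Nov. The shares of all tested genes were 1.78% higher and 0.707% lower. Like the collagens, most genes of these lists averaged higher in siNC replicates 1 and 2 than in 3 and 4. This held for 18 of 21 glycoproteins, 24 of 27 receptors and 24 of 27 proteases and inhibitors. It also held for 17 of 20 enzymes and 13 of 18 TGF-beta genes, beside 50.5% of all tested genes.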

How the data were processed

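Poly(A) RNA of 8 C2C12 libraries, 4 siNC and 4 siFAM129B by their titles, was sequenced. The authors deposited FPKM values, 1 for each gene in each library. Per the submitters' processing notes the genome build was mm9; the aligner, counter and annotation were not given in the sources used here. Columns were matched by letter and replicate number; the siFAM129B columns rest on the titles alone, since their descriptions carry another code. Since FPKM is relative to the library total, a library of unlike composition has all its values shifted.

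Of 21879 genes, 5400 were at 0 throughout. For 16478 of the other 16479, all but Neat1, values stood in whole-number ratios (tolerance 0.001 of a read), and the smallest such numbers were taken as reads, which undercounts genes whose reads share a factor. No pair of libraries agreed within sampling noise (lowest chi-square per gene 5.70).

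Tests used limma 3.58.1 (R 4.3.3) on log2(FPKM + 1), with a trend of variance on level. The 11025 genes that averaged 1 FPKM or more were fitted, and p-values were adjusted over all of them by Benjamini-Hochberg. The added 1 understates differences of low genes. Members were never tested as a list. Fam129b had an exact permutation test over 70 assignments. Alternatives changed the pseudocount, filter, scaling, weights, covariates and libraries. GC content came from GENCODE M21 transcripts, with lengths implied by the reads, for 10977 tested genes.

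The members, lists and rules were chosen with earlier results of these data known. Values in every library are given for the 3 highest members of each role and the 6 with the smallest p; of each related list, the member with the smallest p and the one with the highest level are named.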

Additional observations from a re-analysis of the deposited data

Results flagged for a closer look

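In each group of 4 libraries, the gap between the highest or lowest library and its neighbour was divided by the group's range, and groups past Dixon's 95% critical value were taken up; chance gives about 1 in 20 such groups. Of 60 groups of tested matrix genes, 3 passed. Nid1 in siFAM129B had a ratio of 0.988, with library 4 at 124 FPKM below libraries 1 to 3. Ltbp1 in siFAM129B had a ratio of 0.927, with library 4 at 40.9 FPKM again the lowest. Lama5 in siNC had a ratio of 0.934, with library 4 at 48.4 FPKM below the other siNC libraries.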

How the results depend on the processing

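Across 21 alternatives, 0 matrix members were called in each; the smallest adjusted p of a member, for Ltbp3, was 0.255, with siFAM129B library 4 left out and the replicate split as a covariate. Over those alternatives 15 of the 30 members kept the sign of their log2 difference and 15 changed it in at least 1. In 0 of 627 values did a difference larger than its SE turn into an opposite one larger than its SE. Members whose reported difference was smaller than its SE could not count there, so this 0 is no measure of stability. Thbs1, for example, went from -0.17 (SE 0.28) to 0.16 (SE 0.08) without siFAM129B replicate 4. Without the same library Vcan went from -0.19 (SE 0.26) to 0.12 (SE 0.05). Over all genes, limma called 1 gene after quantile normalization, 2 with array weights, 1 with length and GC trends removed and 5 with siFAM129B library 4 left out beside the covariate; leaving out single libraries gave 0 to 1. Genes at an unadjusted p under 0.05 ran from 125 (without siNC replicate 4) to 1241 (with library 4 left out and the covariate); they were 550 with no low-value filter, 174 at a mean of at least 5 FPKM, 1183 with array weights, 448 with the covariate alone, 140 without siNC replicate 3, 762 without siFAM129B replicate 3 and 475 without siFAM129B replicate 4. Members at that level numbered 2 in the reported fit, 0 without siNC replicate 3, siNC replicate 4 or siFAM129B replicate 1, 5 with array weights, 4 with length and GC trends removed and 11 in the fit without library 4 and with the covariate. Members above 0 numbered 14 to 27. Members whose groups did not overlap numbered 3 (3.37% of all tested genes). They numbered 2 with libraries scaled to 1 common sum (3.3%) and 0 after quantile normalization (3.27%). Leaving out single libraries gave 3 to 10. There were 10 without siFAM129B replicate 3 (13.9% of all tested genes) and 5 without siFAM129B replicate 4 (5.83%). The cause of these moves was not tested. The log2 difference of Fam129b was -0.91 to -0.73 with single libraries left out, with an exact permutation p of 0.0286 without a siFAM129B library and 0.0571 without a siNC library.

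No pairing of single libraries by number was evident, but replicates 1 and 2 stood apart from 3 and 4 in both groups. Deviations of same-numbered libraries from their group means correlated at 0.531, 0.25, 0.0449 and 0.124 over tested genes. siFAM129B libraries 1 and 2 both correlated best with siNC library 1 (0.531 and 0.473), library 3 with siNC library 4 (0.393) and library 4 with siNC library 3 (0.343). Between the groups, libraries numbered 1 or 2 correlated with each other at 0.25 to 0.531. Those numbered 3 or 4 did so at 0.0449 to 0.393. Every correlation of a library numbered 1 or 2 with one numbered 3 or 4 was negative, from -0.458 to -0.0744. The siFAM129B mean includes library 4, which stood apart, so these correlations cannot exclude pairing. With a replicate block, limma called 0 genes and 0 members, with 305 genes and 1 member, Lamb3, at an unadjusted p under 0.05. For Fam129b the block gave -0.78 with an exact sign-flip p of 0.125, the smallest that 4 pairs allow.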
